A study of Homo sapiens with 2 samples.

Results

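The ATG8 family consists here of 7 protein-coding genes, 4 of the LC3 subfamily (MAP1LC3A, MAP1LC3B, MAP1LC3B2 and MAP1LC3C) and 3 of the GABARAP subfamily (GABARAP, GABARAPL1 and GABARAPL2), of 20163 protein-coding genes on chromosomes 1 to 22, X and Y. Their NRF1-binding sites were taken as every ChIP-seq peak with its centre within 50 kb of an annotated transcription start site (TSS) of a member, or listed for a member in the study's annotated sites. This gave 4 of 5683 peaks, and the listed sites were the same 4. The cells were HCT116, a human colorectal carcinoma line, kept for 16 h in 1 µM MG132, a peptide aldehyde that blocks the proteasome. Chromatin was fixed with formaldehyde and immunoprecipitated with an anti-Nrf1 antibody. The peak list of this 1 NRF1 ChIP library was used. An input library of MG132-treated cells was made but not analysed here. There was no untreated sample, no sample without NRF1 and no replicate, so that no value below has a replicate error and no difference was tested. How many reads each peak rests on is not known.

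ATG8 proteins are small ubiquitin-like proteins that are joined to the lipid phosphatidylethanolamine on the growing autophagosome membrane. There they bind receptors such as p62/SQSTM1, which carry ubiquitinated cargo, and other parts of the autophagy machinery. LC3 proteins are linked mainly to growth of the membrane and GABARAP proteins mainly to later maturation and to binding of the ULK1 kinase complex. NRF1, encoded by NFE2L1, is a CNC-bZIP transcription factor that is activated when the proteasome is inhibited and binds the antioxidant response element (ARE) together with small MAF proteins.

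The ARE was searched on both strands as TGACNNNGC or TGAGNNNGC, the consensus used by the study, and as its longer form TGACTCAGC or TGAGTCAGC. The longer form contains the AP-1 site, TGACTCA or TGAGTCA. The sequences below are those at the 4 member peaks and at MAP1LC3C, which carried the same 9 bases next to its TSS without a peak. All are from hg19 and run 5′ to 3′ on the strand of the motif, with distances from the canonical TSS. Capitals mark the ARE or, in the last pair, the 9 bases of the peak that come closest to it.
GABARAPL1 intron 1 peak, 601 bp downstream of the TSS: ccgtcttcagTGACTCAGCaacccacaca
MAP1LC3B2 intron 1 peak, 541 bp downstream of the TSS: gggattcttcTGACTCAGCaaaactggag
MAP1LC3C intron 2, no peak, 445 bp downstream of the TSS: cttaagaatgTGACTCAGCgtgagtgtta
GABARAPL1 upstream peak, no ARE: aaacagagcgTGACTCAGGaatctgaaga
MAP1LC3B intron 1 peak, no ARE: gggcgcggggTGATTCAGCaggcccgggg

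NRF1 peaks lay next to 3 of the 7 genes: GABARAPL1 had 2, and MAP1LC3B2 and MAP1LC3B had 1 each. GABARAP, GABARAPL2, MAP1LC3A and MAP1LC3C had none. The same 3 genes were found within 2 kb and within 50 kb of a TSS, so that widening the window added no peak. Across all protein-coding genes, 6.03% (1215 of 20163) had a peak within 2 kb of a TSS and 32.7% (6591 of 20163) within 50 kb. With 7 genes, 3 of them with a peak, the count describes the family and was not set against these shares by a test. The map of the 7 loci shows all 4 peaks close to a canonical TSS, with their centres within 529 bp of it.

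**Figure D1:**
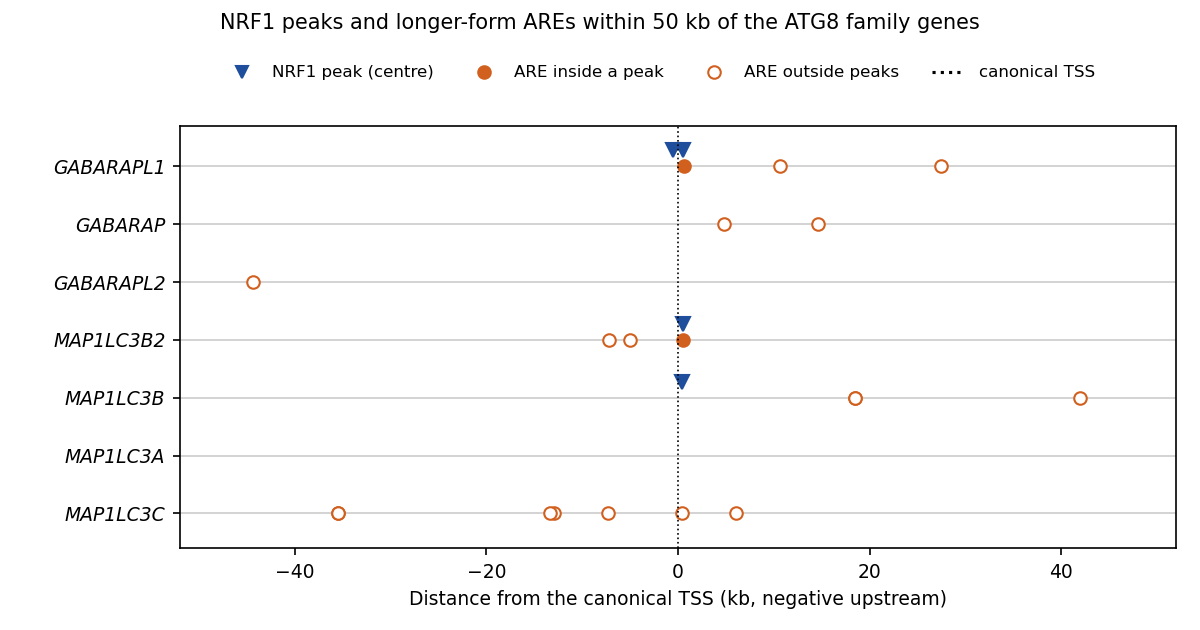
NRF1 peak centres (triangles) and copies of the longer ARE form inside (filled circles) or outside (open circles) a peak, by distance in kb from the canonical TSS of each ATG8 family gene. The 4 peaks lie within 529 bp of a canonical TSS, while 17 of the 19 ARE copies have no peak.

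The score of a peak is the value that MACS gives as 10 times the negative log10 of its p-value, and it was read only within this list. Scores ran from 50.00 to 3100.00 with a median of 91.86. Of the member peaks, that in intron 1 of GABARAPL1 scored 302.72, that upstream of GABARAPL1 139.88, that of MAP1LC3B2 98.92 and that of MAP1LC3B 54.64. The first stood at rank 406 of 5683, within the highest 7.14% of scores. The upstream peak stood at rank 1616 and the MAP1LC3B2 peak at rank 2562, both above the median of the list. The MAP1LC3B peak stood at rank 5158, with 9.24% of the peaks below it. Among the 1215 protein-coding genes with a peak within 2 kb, whose best peaks had a median score of 99.46, GABARAPL1 was number 157, MAP1LC3B2 number 614 and MAP1LC3B number 1123.

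**Figure D2:**
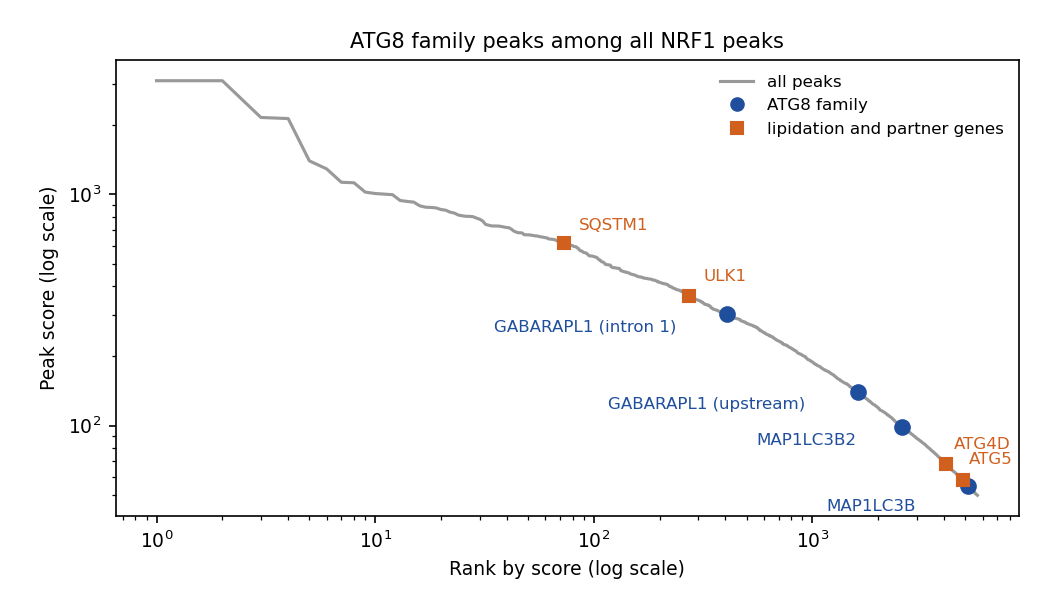
Score of every NRF1 peak against its rank, both on log scales, with the ATG8 family peaks (circles) and the best peaks of other autophagy genes (squares) marked. The family spans scores from 302.72 to 54.64, and the peaks of SQSTM1 and ULK1 rank higher than any of them.

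GABARAPL1 (chr12:10365057-10375727, plus strand) encodes a GABARAP subfamily member also known as GEC1. Its stronger peak, chr12:10365655-10366356, spanned 702 bp, and its centre stood 529 bp past the canonical TSS, in intron 1. The gene has 14 annotated TSSs over 19 transcripts, and the closest of them was 23 bp from this centre. The peak held 2 matches to the consensus. The longer form, at chr12:10366073-10366081, lay 72 bp from the centre, and the match TGAGGGAGC lay in exon 1 at the first base of the peak. The longer-form site is intronic in the canonical transcript but falls in an exon of 5 of the 19 transcripts. The other peak, chr12:10364687-10365238, was 552 bp wide, centred 514 bp upstream of the canonical TSS and 95 bp upstream of the first annotated transcript. It held no consensus match. The 2 centres were 1043 bp apart with 416 bp between the edges, and the intron 1 peak scored 2.16 times the upstream peak. The next protein-coding gene, KLRD1, had its TSS 12652 bp from the nearer centre, so that both peaks were assigned to GABARAPL1.

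The ChIP-qPCR primers that the study used for the GABARAPL1 ARE were placed on hg19 to see which of these peaks they test. They are the oligonucleotides that follow, each written 5′ to 3′.
forward primer: gcttttaaaaccccgtatgcctgg
reverse primer: tgtgtgggttgctgagtcactg
The product, chr12:10365992-10366091, is 100 bp long and runs from 516 to 615 bp downstream of the canonical TSS. It lies wholly inside the intron 1 peak and holds 1 longer-form ARE, which the reverse primer covers. The upstream peak lies outside it.

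MAP1LC3B2 (chr12:116985910-117014411, plus strand) had 1 peak, chr12:116997451-116997967, of 517 bp. Its centre was 523 bp downstream of the canonical TSS in intron 1, and the TSS of the next protein-coding gene, SPRING1, was 160223 bp away. The peak held 1 longer-form ARE on the minus strand, at chr12:116997723-116997731 and 18 bp from the centre. An exon of 1 of the 4 annotated transcripts covers both the centre and the ARE. MAP1LC3B2 is annotated as a retrogene, and its coding sequence lies in 1 exon where that of MAP1LC3B is spread over 4. Both coding sequences are 375 bases long and match at 373 of them (99.5%). Such a pair can share reads, so the peak was checked for repeated sequence. All 488 stretches of 30 bases in it occur at no other place in the genome, and the peak lies outside the coding exon.

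MAP1LC3B (chr16:87417559-87438385, plus strand) encodes the LC3 protein most used as a marker of autophagosomes. Its peak, chr16:87426133-87426629, was 497 bp wide and centred 439 bp downstream of the canonical TSS in intron 1, where 1 of the 6 annotated transcripts has an exon. FBXO31 has a TSS 633 bp from this centre. The peak held no consensus match and had a GC content of 79.9%, against a median of 45.3% over all peaks. The other member peaks had 49.1% (MAP1LC3B2), 55.3% (GABARAPL1, upstream) and 57.7% (GABARAPL1, intron 1). The members with and without a peak overlapped in GC content. The 250 bases on each side of the canonical TSS held 76.8% GC in MAP1LC3B, 59.0% in GABARAPL1 and 53.8% in MAP1LC3B2. In the genes without a peak they held 74.2% (MAP1LC3A), 71.2% (GABARAPL2), 62.4% (GABARAP) and 48.8% (MAP1LC3C). Whether base composition bears on the weak MAP1LC3B peak was not tested.

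**Figure D3:**
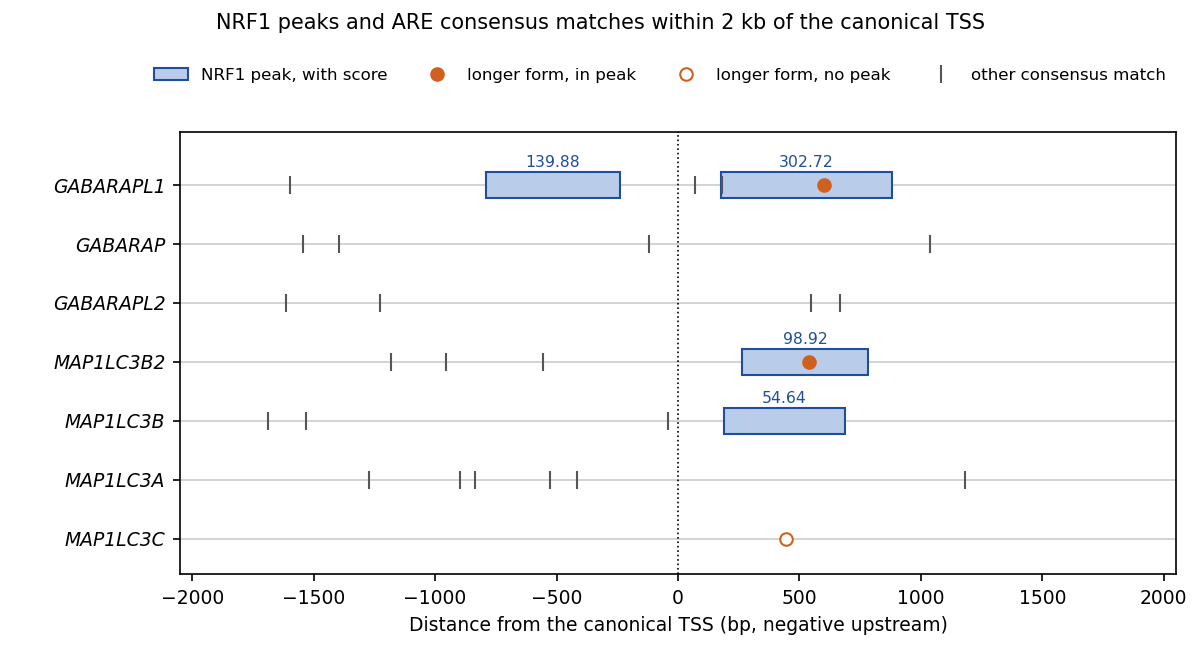
Extent of the NRF1 peaks (boxes, with their scores) and matches to the ARE consensus within 2 kb of the canonical TSS of each ATG8 family gene, by distance in bp. Of 26 matches, 3 lie in a peak, and the 3 longer-form copies all lie 445 to 601 bp downstream, that of MAP1LC3C without a peak.

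An ARE was found in 2 of the 4 member peaks, and both carried the longer form. Over the whole list, 87.4% (4958 of 5673) of the peaks with known sequence had the consensus and 61.3% (3478 of 5673) the longer form. Peaks with the longer form had a median score of 103.43, those with only the shorter form 83.71 and the 715 peaks with neither 71.76. In the GABARAPL1 upstream peak, which scored above these medians, the site closest to the longer form was TGACTCAGG, 7 bp from the centre. It differed by 1 substitution, C9G, where position 1 is the T that opens the motif, and it kept the AP-1 site TGACTCA. In the MAP1LC3B peak the closest site was TGATTCAGC, with the substitution C4T, which falls inside the AP-1 site. The middle base of this site was the centre of the peak. Such sites with 1 substitution were then counted in all peaks without the consensus, after these values had been seen. They occurred in 67.1% of the 715 peaks (480 peaks, 63.6 to 70.5%, 95% Wilson interval) and in 21.0% of 1011 windows of equal length 2 kb away that also lacked the consensus (18.6 to 23.6%). Within 10 bp of the centre, where both member sites lay, they occurred in 13.0% of these peaks (10.7 to 15.7%) and in 0.593% of the windows (0.272 to 1.29%). The intervals cover counting error only. These counts include the 2 member peaks and pool all forms with 1 substitution, so that they do not bear on either member site alone. The windows were not matched to the peaks for GC content.

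The shorter consensus was present near every member, with or without a peak. Within 2 kb of the canonical TSS there were 6 matches at MAP1LC3A, 4 each at MAP1LC3B2, GABARAP, GABARAPL1 and GABARAPL2, 3 at MAP1LC3B and 1 at MAP1LC3C. Of these 26 matches 23 had only the shorter form, and 1 of the 23, in exon 1 of GABARAPL1, lay in a peak. The share of all protein-coding genes with a match in this window is not given here. The matches are therefore not read as a trait of the family, and the promoters below are a shorter window. MAP1LC3A, with the most matches, had no peak nearer than 231926 bp. In the RefSeq promoters (GRCh38.p14, from 250 bases before to 50 after the start), 29.4% of 27305 promoters held the consensus and 0.963% the longer form. Of the 6 members that have an entry, MAP1LC3A not being among them, 2 held the consensus and 0 the longer form. These matches, in capitals, are shown because neither lay in a peak.
MAP1LC3B, 42 bases before the start: gcgagtcaccTGACCAGGCtgcgggctga
GABARAP, 120 bases before the start: gctaatggcgTGAGGGGGCcggtcagttg

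The longer form was found within 2 kb of the canonical TSS of 3 members, GABARAPL1, MAP1LC3B2 and MAP1LC3C, and 2 of them had that copy in a peak. Of all protein-coding genes with a canonical transcript, 7.31% (1453 of 19881) had such a copy, and 14.9% of those (216 of 1453) had 1 of these copies in a peak. MAP1LC3C (chr1:242158792-242162400, minus strand), whose product binds the receptor NDP52 in the autophagy of bacteria, was the member with the copy but no peak. Its ARE, chr1:242161951-242161959, lies in intron 2 and on the strand opposite to the gene. The nearest peak edge was 191293 bp away. All stretches of 30 bases around this copy occur at no other place in the genome, but how many reads fell there is not known. Its 9 bases are identical to those at GABARAPL1 and MAP1LC3B2, and its distance from the canonical TSS is close to theirs. To the nearest TSS of any protein-coding gene transcript the distances are unlike, 38 bp at GABARAPL1, 541 bp at MAP1LC3B2 and 445 bp at MAP1LC3C. The bases next to the motif differ: A follows it at GABARAPL1 and MAP1LC3B2, and G follows it at MAP1LC3C. None of the 3 has A before it.

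These neighbouring bases were compared over all copies in the genome, after the sequences above had been seen. Of 53132 copies of the longer form 7.37% lay in a peak. The share was 15.6% of 18597 copies followed by A (15.0 to 16.1%) and 2.96% of 34535 followed by another base (2.79 to 3.14%). With A on both sides it was 33.5% of 5243 copies (32.2 to 34.8%), and with A on neither side 1.92% of 27412 (1.77 to 2.09%). Copies with A after but not before, as at GABARAPL1 and MAP1LC3B2, stood at 8.51% (8.05 to 9.0%). Within 2 kb of a protein-coding TSS the shares were higher, and 11.3% of 4699 copies lay in a peak. There the share was 15.2% of 1067 copies with A after but not before (13.2 to 17.5%), and 4.62% of 2706 copies with A on neither side, as at MAP1LC3C (3.89 to 5.48%). Most copies of the GABARAPL1 kind therefore lay in no peak of the list. Copies in repeated sequence, where reads may not be placed, were not set apart in these shares, and the most repeated copies near the family have A on neither side. Chromatin state and DNA methylation at the copies were not measured, and the part of the neighbouring bases in the difference between the 3 genes was not tested.

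**Figure D4:**
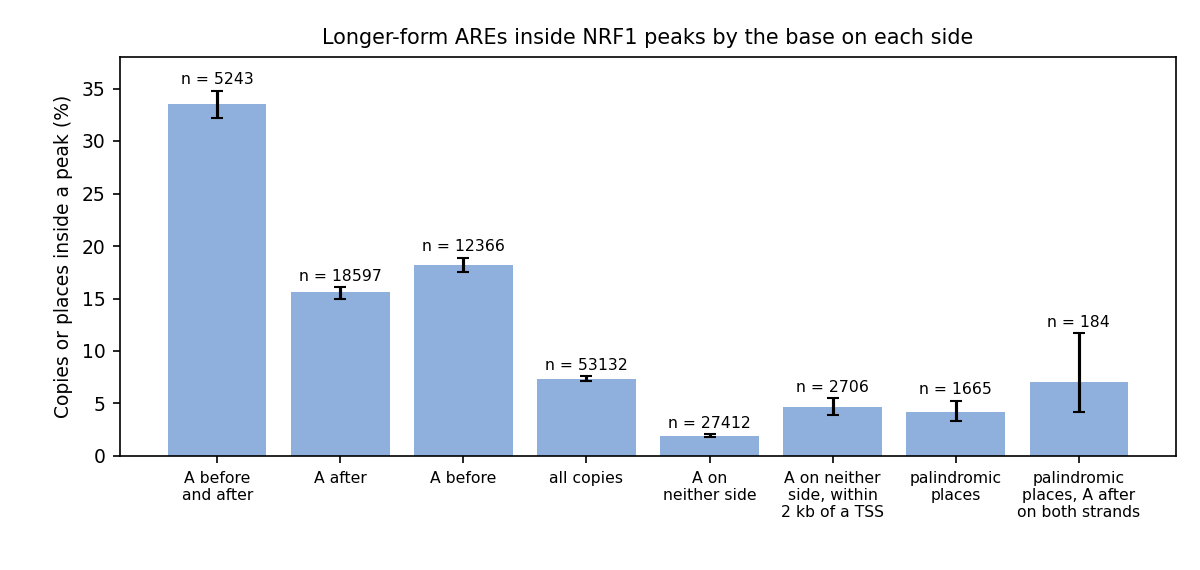
Share (%) of longer-form ARE copies that lie inside an NRF1 peak, by whether A stands before or after the 9 bases, with 95% Wilson intervals and the number of copies. The share runs from 33.5% with A on both sides to 1.92% with A on neither side, and palindromic places, counted once per pair of overlapping copies, stand at 4.2% in all and at 7.07% with A after the motif on both strands.

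Within 50 kb of the 7 canonical TSSs there were 19 copies of the longer form, 15 of TGACTCAGC and 4 of TGAGTCAGC, and 2 of the 19 lay in a peak. MAP1LC3C had 7 copies, MAP1LC3B, MAP1LC3B2 and GABARAPL1 had 3 each, GABARAP had 2, GABARAPL2 had 1 and MAP1LC3A had 0. MAP1LC3C had the most copies and no peak, but its 7 copies count both strands of 1 palindrome and include 1 repeated copy with 75 identical places. Of the 19 copies 7 lay within 2 kb of a protein-coding TSS of any gene, and 2 of these 7 were in a peak, at GABARAPL1 and MAP1LC3B2. Over the genome the shares in a peak were 7.37% of all copies and 11.3% of those within 2 kb of such a TSS. With so few copies, the counts near the family were not tested against these shares. The 17 copies without a peak had A after the motif in 4 cases, A before it in 1 and A on both sides in 0. The copies that follow lacked a peak although A stood next to the motif or a TSS of another gene lay within 2 kb, and 1 strand is given of each palindrome. Capitals mark the ARE.
MAP1LC3B2, 7241 bp upstream: ctggaggaaaTGAGTCAGCcagatttgaa
MAP1LC3B, 18441 bp downstream: gcaggcctgcTGAGTCAGCaggcgtgttt
MAP1LC3B, 41949 bp downstream: ctgtagtttcTGACTCAGCctcatcaagg
MAP1LC3C, 35486 bp upstream: tctccgctgcTGACTCAGCatcaatgcat
GABARAP, 4767 bp downstream: cctagtgtctTGACTCAGCttttattgct
GABARAP, 14597 bp downstream: agtccctcccTGACTCAGCctcctgttcc

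The MAP1LC3B copy 18441 bp downstream and the MAP1LC3C copy are palindromes, in which the motif reads on both strands with a shift of 2 bases, so that the 4 copies followed by A stand at 2 places. Of 1665 such palindromic places in the genome, each counted as 1 and not as 2 copies, 4.2% lay in a peak (3.34 to 5.28%). Of the 184 with A after the motif on both strands, as at these places, 7.07% did (13 places, 4.18 to 11.7%). The shares of copies given above count the 2 strands of a palindrome apart. The MAP1LC3B palindrome lies in intron 12 of ZCCHC14, and the other MAP1LC3B copy in its intron 2, 1151 bp from a TSS. The copies near GABARAP lie in other genes, 112 bp from a TSS of PHF23 in its intron 1 and 25 bp from a TSS of DVL2 in its intron 10. None of these 3 non-palindromic copies has A on either side. All stretches of 30 bases around these 6 copies occur at no other place in the genome.

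For the 4 members without a peak, the nearest peak was over 50 kb away and lay closer to a TSS of another gene. At GABARAP (chr17:7143327-7145768, minus strand), first known for binding the GABA-A receptor, it was 152476 bp away with a score of 53.39 and lay 83 bp from a TSS of PLSCR3. At GABARAPL2 (chr16:75600273-75611779, plus strand), also known as GATE-16, it was 245182 bp away, scored 64.69 and lay 94300 bp from CPHXL, the nearest gene, and so within 50 kb of none. At MAP1LC3A (chr20:33134658-33148149, plus strand) it was 231926 bp away, scored 93.36 and lay 3124 bp from a TSS of AHCY. At MAP1LC3C it was 191981 bp away, scored 132.13 and lay 36662 bp from a TSS of WDR64. In the 2 kb on each side of the canonical TSS, 81.1% (MAP1LC3C) to 91.9% (MAP1LC3A) of the stretches of 30 bases were unique in these 4 genes, against 78.4% (MAP1LC3B2) to 89.0% (MAP1LC3B) in the genes with a peak. A peak list names only regions past the threshold of the caller, and it does not show how much signal there was at these 4 genes.

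Other genes of the same pathway were described with 2 lists of 12 genes, beside the shares of 6.03% within 2 kb and 32.7% within 50 kb over all protein-coding genes. Among the genes that attach and remove ATG8 proteins from the lipid, 2 of 12 had a peak within 2 kb and 5 of 12 within 50 kb. They were ATG4D, a protease that processes ATG8 proteins, with a score of 68.31 at 314 bp upstream of the TSS, and ATG5, a part of the conjugating complex, with 57.99 at 16 bp upstream. Both peaks had the shorter consensus only, and both scored above that of MAP1LC3B and below those of MAP1LC3B2 and GABARAPL1. Among the binding partners of ATG8 proteins, 2 of 12 had a peak within 2 kb and 5 of 12 within 50 kb. For both lists, and for the family with 3 of 7 members, the share within 50 kb is near that of all genes. With so few genes, neither the counts within 2 kb nor those within 50 kb were tested against the shares of all genes. The best peak of SQSTM1, which encodes the receptor p62, scored 616.46 at rank 73 and held 2 copies of the longer form. That of ULK1, the kinase that starts autophagy, scored 363.96 at rank 272 and held 1 shorter consensus. All 4 ATG8 family peaks ranked below both, and the highest of them was the intron 1 peak of GABARAPL1 at rank 406.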

How the data were processed

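The authors sequenced 1 NRF1 ChIP library of HCT116 cells with single-end reads. According to the submitters' processing notes, reads were extracted with bcl2fastq and CASAVA 1.8.2, mapped to hg19 with Bowtie2 2.2.6, and peaks were called with MACS 1.4.2. The control library, the settings of MACS and the handling of duplicate reads are not given in the sources used here. The deposited file lists the bounds of each peak with a score, and the authors' score is the value MACS wrote, not a read count. Starts were counted from 0 in the file and are given from 1.

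Peaks were compared with the GENCODE annotation on the same build (GRCh37, release lifted over), using peak centres, every TSS of a gene for the windows of 2 kb and 50 kb, and the canonical transcript for signed distances. AREs were searched on both strands, and a copy counted as inside a peak when all 9 bases were. Of the 5683 peaks, 5 were on unplaced contigs and 5673 had known sequence throughout. Uniqueness is the share of 30-base stretches found at 1 place in the genome. Coding sequences were aligned in pairs. With 1 library no test was run, and shares have 95% Wilson intervals.

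The genes named are the 7 members, the protein-coding genes nearest to their peaks or ARE copies, and those of 2 pathway lists with a peak within 2 kb. The members and lists were chosen with earlier results of these data known. PHF23, DVL2, ZCCHC14, PLSCR3, AHCY, WDR64 and CPHXL were named after their values were seen. The search, distances and overlaps were tested on simulated data. The tools were pysam 0.24.0, Biopython 1.88, pandas 2.3.3, numpy 2.4.6, scipy 1.17.1 and matplotlib 3.10.9, under Python 3.11.15. Alternatives were a higher score threshold, other windows, distances from the peak edge, other sets of TSSs, the central 200 bp, and other ways of counting ARE copies. Expression, ChIP-qPCR values and conservation were not used here.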

Additional observations from a re-analysis of the deposited data

How the results depend on the processing

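Of 48 alternatives, 31 left the value within its limits and 17 moved it. The choice that moved the family's own counts was a score of at least 100. It left 1 member with a peak within 2 kb and 1 within 50 kb (GABARAPL1), 2 member peaks, 1 member peak with an ARE, 1 longer-form copy in a peak and 0 lipidation genes. The MAP1LC3B2 peak, at 98.92, lies just below this limit. The background moved with it, to 3.01% of protein-coding genes within 2 kb, 17.6% within 50 kb and 4.06% of longer-form copies. Canonical TSSs alone gave 3.72% within 2 kb and 27.3% within 50 kb, and TSSs of protein-coding transcripts 4.94% and 30.1%. Windows of 1 kb, 5 kb and 25 kb gave 4.76%, 8.96% and 21.4% of genes, and copies within 2 kb of a protein-coding TSS 11.3%. With every other window, set of TSSs and distance, 3 members were counted, and 4 peaks wherever peaks were counted. Counting overlapping copies together, an alternative chosen after seeing the data, gave 7.47%. No paired analysis was possible because only 1 sample has a peak list. The depth is unknown, so that members without a peak may have signal under the threshold.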

Other observations

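Some of the peakless ARE copies near the family belong to sequence that is repeated through the genome. The copy 44381 bp upstream of GABARAPL2, the only one within 50 kb of that gene, has the same 21 bases (the ARE and 6 on each side) at 658 places, of which 3 lay in a peak. The copy 5043 bp upstream of MAP1LC3B2 has 172 identical places and that 6017 bp downstream of MAP1LC3C has 75, none of them in a peak (0 of each). The copy 27466 bp downstream of GABARAPL1 has 5 and the DVL2 copy near GABARAP has 2, again with 0 in a peak. The other 14 copies occur at 1 place each, including those in the peaks of GABARAPL1 and MAP1LC3B2. Of the stretches of 30 bases around the 4 most repeated copies, 36.5% (GABARAPL2), 48.6% (MAP1LC3C), 63.5% (GABARAPL1) and 72.3% (MAP1LC3B2) were unique. The upstream peak of GABARAPL1, which has no ARE, was the member peak with the lowest share of unique stretches, 77.6%, against 94.4% in the intron 1 peak and 100% in those of MAP1LC3B and MAP1LC3B2.

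The coding sequences of the family differ far more than those of MAP1LC3B and MAP1LC3B2. Within the GABARAP subfamily identity was 76.6% between GABARAP and GABARAPL1, 63.8% between GABARAP and GABARAPL2 and 61.8% between GABARAPL1 and GABARAPL2. Within the LC3 subfamily it was 73.6% between MAP1LC3A and MAP1LC3B, 69.1% between MAP1LC3A and MAP1LC3C and 65.5% between MAP1LC3B and MAP1LC3C. Between the subfamilies it was 51.4 to 63.9%, a range that holds both values of GABARAPL2 within its own subfamily. MAP1LC3B2 and GABARAPL1, whose peaks both hold the sequence TGACTCAGC followed by A, share 55.5% of their aligned coding bases. The motif lies on the strand opposite to the gene at MAP1LC3B2 and on the same strand at GABARAPL1. In that order it is 541 and 601 bp from the canonical TSS, and 541 and 38 bp from the nearest protein-coding TSS.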
